A study of Homo sapiens with 21 samples.

Results

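CRT34 is a tolerant line that was derived in mice from A375 melanoma xenografts under combined BRAF and MEK inhibition, and it is deficient in SOX10. The 3 CRT34 libraries prepared from cells kept on both inhibitors, here CRT34 Combo, were compared with the 3 libraries of A375 parental cells. The differences of the main comparison therefore come from 6 of the 21 libraries of the series. A375 is a human melanoma cell line that carries an activating BRAF mutation, and the parental cells were grown without inhibitor. CRT34 Combo cells were grown in PLX4720 (1 µM), which inhibits mutant BRAF, and PD0325901 (35 nM), which inhibits MEK. For reference, the same line without the inhibitors (CRT34 DMSO, 3 libraries) and a second tolerant line on the inhibitors (CRT35 Combo, 3 libraries, also from an A375 xenograft and also SOX10 deficient) were used. Every group is therefore A375 derived, and no parental library on inhibitors was analysed here, so that the effect of the drugs and the effect of the tolerant line cannot be told apart in the main comparison. CRT34 is a single line, and the sources used here do not say whether mouse host cells remained in it. They also do not say how long the CRT34 DMSO cells had been off drug or whether replicates were separate cultures. P-values therefore measure the spread between libraries. Unless stated otherwise, this spread and the gene filter came from all 21 libraries. Among these are also CRT35 without the inhibitors (CRT35 DMSO) and the A375 SOX10 knockout groups gSOX10 #2 and gSOX10 #4, with 3 libraries each.

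SOX10 is a transcription factor of the neural crest that melanocytes and most melanomas need for their lineage program, including the expression of ERBB3, MIA and the pigmentation regulator MITF. In melanoma with mutant BRAF, signaling runs from BRAF through MEK to ERK, and ERK drives a small group of immediate targets, among them the phosphatases and Sprouty proteins that restrain the pathway. Cells that survive inhibition of this pathway are known to include states with low SOX10, mesenchymal matrix and slow division.

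Values are the authors' normalized gene values, which are not counts. Log2 differences are on the log2(value + 1) scale, which understates changes of low genes. A gene was tested where its value was at least 10 in at least 3 libraries (19290 genes), and it was called when the limma test gave a Benjamini-Hochberg adjusted p of 0.05 or lower with a change of at least 2-fold. Summed values ran from 59.2 to 62.1 M in CRT34 Combo and from 63.5 to 68.3 M in the parental libraries. Correlations of log2 values were 0.985 to 0.988 between parental libraries and 0.981 between Combo replicates 1 and 2, but 0.959 and 0.969 between these and Combo replicate 3, which correlated at 0.963, 0.972 and 0.972 with CRT34 DMSO replicates 1, 2 and 3. Combo replicate 3 therefore stands apart from its group, and results are given with and without it where it moved them. CRT34 DMSO replicate 1 scattered too, at 0.968 and 0.973 with DMSO replicates 2 and 3, which correlated at 0.985 with each other.

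In all, 3679 genes (19.1%) were higher and 1560 (8.09%) lower in CRT34 Combo than in A375 parental cells. These shares are the reference for every list count against parental cells below. Without Combo replicate 3 the numbers were 3750 (19.4%) and 1639 (8.50%), and 3397 and 1330 genes were called in the same direction by both fits. The 3 Combo and 3 parental libraries did not overlap for 3479 of the 3679 higher genes and for 1505 of the 1560 lower genes. The split of 70.2% higher among called genes fell to 51.8% after quantile normalization (2639 higher and 2457 lower), which moved the median of all genes from 0.036 to -0.120 log2, while equal totals moved it to 0.138. Many of the higher genes started from near silence. Of the 3679, 1493 had a parental mean under 10, and 554 of the higher genes changed by at least 16-fold. Of the 1560 lower genes, 305 had a Combo mean under 10 and 154 changed by at least 16-fold.

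SOX10 (chr22:37970686-37987422, minus strand, GRCh38) separated the parental libraries from those of the tolerant lines. Its normalized values were 10348, 11877 and 12822 in the parental libraries, and it was listed at 0 in all 3 CRT34 Combo libraries. In CRT34 DMSO it was listed at 6.32, 0 and 0.974, and in CRT35 Combo at 0 in every library. The gene was called lower in CRT34 Combo than in parental cells (adjusted p = 1.71e-13), with no overlap between the groups. It cannot tell Combo from DMSO libraries or CRT34 from CRT35, because it was at or near 0 in all of them. The label of Combo replicate 3 against DMSO was therefore not checked by it.

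Genes of the neural crest and glial lineage followed the same direction for the most part. Of 23 tested members of this list, 14 were lower in CRT34 Combo and 4 were higher, with a median of -3.04 log2 against 0.036 over all genes. ERBB3, the receptor that pairs with ERBB2 to bind neuregulin, stood at 5993, 9355 and 9197 in parental and at 115, 46.4 and 27.9 in Combo libraries (-7.21 ± 0.51 SE, adjusted p = 2.36e-09). SOX5, a SOX factor without an activation domain, had parental values of 8545, 11437 and 9266 and Combo values of 92.5, 127 and 207 (-6.16 ± 0.41, adjusted p = 8.16e-10). SOX11, a SOX factor of immature neural cells, stood at 1959, 2492 and 2643 against 25.3, 7.52 and 18.3 (-7.17 ± 0.54, adjusted p = 5.33e-09). For each of these the highest Combo library lay far below the lowest parental library. NGFR, the nerve growth factor receptor that marks neural crest-like melanoma cells, had 760, 757 and 724 in parental and 28.8, 25.3 and 16.3 in Combo libraries (-4.97 ± 0.40, adjusted p = 1.28e-08). POU3F2, a neural POU factor also called BRN2, was reduced less, from 1519, 1584 and 1481 to 567, 398 and 313 (-1.88 ± 0.27, adjusted p = 1.91e-05). MIA, a secreted melanoma marker and known SOX10 target, had parental values of 3700, 3874 and 3572 and Combo values of 18.3, 21.6 and 23.2 (-7.40 ± 0.30, adjusted p = 1.25e-12). TFAP2B, a neural crest AP-2 factor, was at 480, 809 and 737 in parental cells and listed at 0 in the Combo libraries.

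A minority of crest genes was higher in Combo. SNAI2, the crest and mesenchymal repressor also called SLUG, stood at 37.8, 40.3 and 31.5 in parental and at 827, 1122 and 1768 in Combo libraries (4.98 ± 0.23, adjusted p = 9.52e-12). GFRA1, a co-receptor for glial cell line-derived neurotrophic factor, had 71.4, 35.5 and 44 against 7486, 4408 and 2558 (6.48 ± 0.57, adjusted p = 4.42e-08). SOX9, a SOX10 relative with roles in cartilage and stem cells, had 213, 214 and 261 against 1221, 1451 and 874 (2.34 ± 0.23, adjusted p = 2.38e-07). TFAP2A, the AP-2 factor of the melanocyte lineage, was higher by 1.47 ± 0.20 (adjusted p = 9.88e-06).

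MITF (chr3:69739456-69968336, plus strand) was higher in CRT34 Combo although SOX10 was listed at 0. Its values were 1502, 1448 and 1390 in parental libraries and 8954, 10247 and 3772 in Combo libraries, a difference of 2.28 ± 0.31 log2 (adjusted p = 1.01e-05). Combo replicate 3 was the lowest of the 3 and still above every parental library. Of 11 tested genes of melanocytic differentiation, 4 were higher and 1 was lower, with a median of 0.84 log2. TYRP1, a melanosomal enzyme, had 52.8, 18.4 and 13.2 against 530, 502 and 831 (4.62 ± 0.57, adjusted p = 3.19e-06), and the melanosome genes GPR143 and CAPN3 were higher from parental values of at most 12.6. RAB38, which moves enzymes to the melanosome, was lower by -1.27 ± 0.16 (adjusted p = 5.75e-06). The other 7 members of the list did not pass the filter in these libraries. TYR and MLANA, the tyrosinase and Melan-A genes, were listed at 0 in all parental and Combo libraries, and no library of these groups had a DCT value above 11.2.

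**Figure D1:**
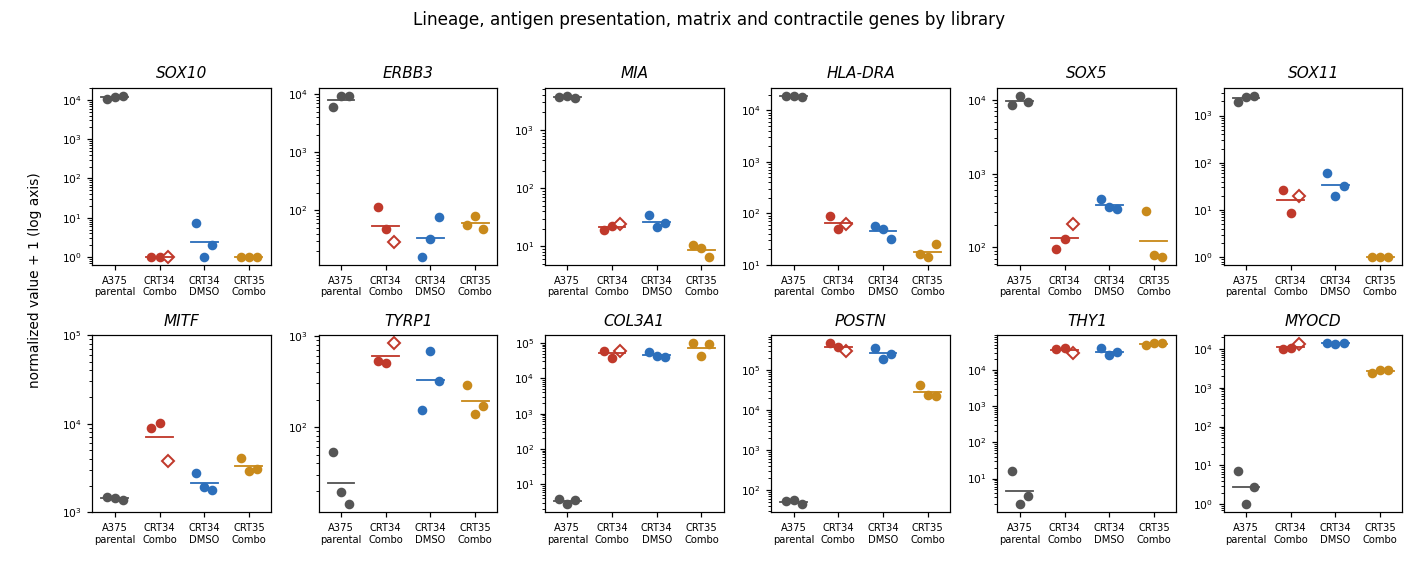
Normalized value + 1 (log axis) of 12 genes in each A375 parental, CRT34 Combo, CRT34 DMSO and CRT35 Combo library. Each point is 1 library, the open diamond is Combo replicate 3, and the line is the geometric mean of value + 1. SOX10, ERBB3, MIA, HLA-DRA, SOX5 and SOX11 are lower in every Combo library than in any parental library, and MITF, TYRP1, COL3A1, POSTN, THY1 and MYOCD are higher.

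The targets of ERK were low in CRT34 Combo. Of 21 tested genes of MAPK pathway output, 12 were lower than in parental cells and none was higher, with a median of -1.14 log2. The 12 lower genes stayed 12 without Combo replicate 3. DUSP6, the phosphatase that inactivates ERK and a standard readout of the pathway, had parental values of 7366, 8003 and 8996 and Combo values of 1751, 1931 and 2173 (-2.06 ± 0.27, adjusted p = 7.53e-06). SPRY2, a Sprouty inhibitor of receptor signaling, had 8103, 8683 and 9085 against 984, 1275 and 685 (-3.18 ± 0.22, adjusted p = 1.53e-09). SPRY4, its relative, had 2947, 3942 and 4879 against 955, 1217 and 1089 (-1.83 ± 0.24, adjusted p = 6.69e-06). In each of these genes the highest Combo library lay below the lowest parental library. ETV4, an ETS factor that ERK induces, stood at 6841, 8670 and 8636 in parental and at 526, 787 and 1077 in Combo libraries (-3.39 ± 0.32, adjusted p = 1.08e-07). Among list members outside the naming rule, chosen here after their values were seen, CCND1, the cyclin that carries ERK signals into the cell cycle, did not pass the test (-0.18, adjusted p = 0.79). Its Combo values of 20826, 36725 and 5753 lay on either side of the parental values of 21644, 16455 and 17778. The inhibitors SPRED1 and SPRED2 also did not pass, at -0.36 and -0.05 log2.

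**Figure D2:**
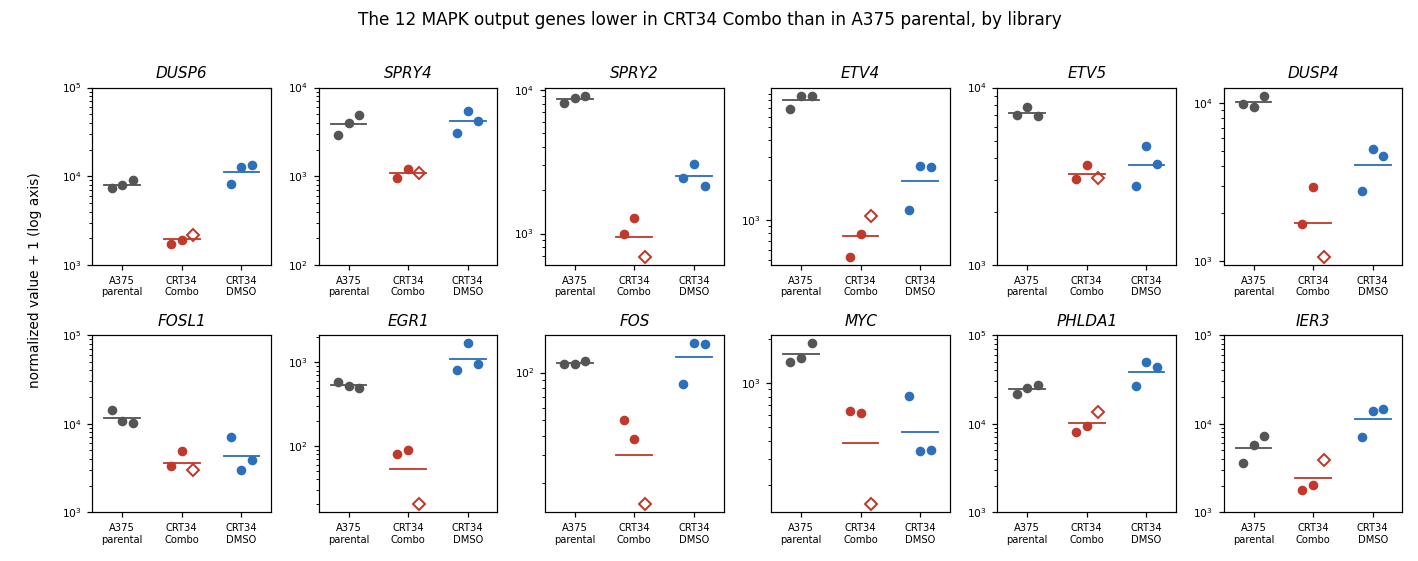
Normalized value + 1 (log axis) of the 12 MAPK pathway output genes called lower in CRT34 Combo than in A375 parental cells, with CRT34 DMSO beside them. Each point is 1 library, the open diamond is Combo replicate 3, and the line is the geometric mean of value + 1. Every Combo library lies below every parental library for DUSP6, SPRY4, SPRY2 and ETV4.

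The same genes could be read with and without drug in the CRT34 line itself. DUSP6 was at 8230, 12614 and 13414 in CRT34 DMSO, SPRY4 at 3103, 5512 and 4185, SPRY2 at 2450, 3038 and 2128, and ETV4 at 1196, 2571 and 2521. Against these, CRT34 Combo was lower by -2.52 for DUSP6 (adjusted p = 2.7e-05), -1.94 for SPRY4, -1.40 for SPRY2 and -1.37 for ETV4. In all, 8 of the 21 members were lower in Combo than in DMSO and none was higher, where 2.84% of all genes were higher and 2.26% lower. Only DUSP6 (adjusted p = 0.0222) and SPRY4 (adjusted p = 0.0463) kept the call when the model held the 6 libraries of these groups alone.

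Of 28 receptor tyrosine kinases and ligands, 12 were higher in CRT34 Combo than in parental cells, where 19.1% of all genes were higher, and 3 were lower, near the 8.09% of all genes. HGF, the ligand of MET, rose from values of 0, 1.89 and 2.85 to 215, 589 and 748 (7.68 ± 0.53, adjusted p = 1.62e-09). FGF2, a fibroblast growth factor, rose from 2950, 2752 and 2521 to 18383, 28556 and 36395 (3.29 ± 0.28, adjusted p = 3.28e-08). NRG1, the neuregulin ligand of ERBB3, rose from 734, 441 and 375.1 to 4262, 4416 and 2088 (2.78 ± 0.27, adjusted p = 1.30e-07). PDGFC, a platelet-derived growth factor, was higher by 2.66 ± 0.20. PDGFRB, a receptor of that family, stood at 449, 597 and 621 in parental and at 1667, 874 and 3810 in Combo libraries (1.69 ± 0.37, adjusted p = 0.00113), of which replicate 3 was the highest, and without it the difference was 1.13. TGFA, a ligand of EGFR, fell from 14230, 15303 and 18141 to 1885, 2114 and 1435 (-3.14 ± 0.53, adjusted p = 9.67e-05), and the collagen receptor DDR1 fell by 1.62 on the log2 scale. EGFR (0.39, adjusted p = 0.125) and AXL (-0.53, adjusted p = 0.161), receptors often followed in drug-tolerant melanoma, did not pass the test, and the Combo and parental libraries overlapped for each.

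Matrix genes rose in CRT34 Combo. Of 35 genes of the extracellular matrix, 27 were higher in CRT34 Combo and none was lower, with a median of 2.86 log2. Leaving out any single library of the compared groups gave 27 higher and at most 1 lower. COL3A1, a fibrillar collagen (chr2:188974373-189012746, plus strand), was listed at 2.83, 1.71 and 2.5 in parental cells and at 58596, 38581 and 59872 in Combo libraries (13.92 ± 0.32, adjusted p = 3.14e-16). POSTN, the matrix protein periostin (chr13:37562583-37598844, minus strand), stood at 53, 55.1 and 42.6 against 483490, 376964 and 312351 (12.88 ± 0.31, adjusted p = 3.71e-16). COL1A2, the second chain of type I collagen, had 22.5, 20.0 and 9.96 against 52919, 49535 and 34068 (11.31 ± 0.65, adjusted p = 1.42e-10). For these 3 collagen and matrix genes no parental library exceeded 55.1 and no Combo library was below 34068. FN1, fibronectin, started higher, at 8314, 5365 and 8834, and reached 144079, 454601 and 256537 (5.13 ± 0.32, adjusted p = 3.88e-10). LUM, a small leucine-rich proteoglycan of collagen fibrils, rose from 286, 355 and 298 to 17193, 12643 and 14692 (5.56 ± 0.26), and FMOD, another of that class, was listed at 2.08, 0 and 1.99 against 2917, 3152 and 1048. FBN1, the microfibril protein fibrillin, rose by 3.54 ± 0.17. COL4A1, a basement membrane collagen, stood at 13289, 14701 and 17579 in parental and at 89798, 119188 and 123524 in Combo libraries (2.86 ± 0.22, adjusted p = 6.37e-09).

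Genes that are known from fibroblasts moved with the matrix. THY1, a surface protein of fibroblasts and other mesenchymal cells, was listed at 14.8, 0.929 and 2.33 in parental and at 36623, 39765 and 28947 in Combo libraries. Of 8 fibroblast markers, 6 were tested, 4 were higher and none was lower, and their summed value was 111 to 165 in parental and 2404, 3542 and 3479 in Combo libraries. FAP, a surface protease of activated fibroblasts, made up most of this sum, at 48.5, 53.7 and 52.9 against 1559, 2818 and 2852. The list members DPT and TCF21 did not pass the filter and were at most 1.88 in every Combo library. The part of the fibroblast markers in the matrix genes was not tested, and in bulk RNA more cells of a type and more RNA per cell cannot be told apart. Markers of melanoma gave 4 lower and no higher of 7, and the cancer-testis genes PRAME, MAGEA3 and MAGEA12, which the parental line expressed, did not pass the test in either direction.

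Integrins and adhesion molecules gave 8 higher and 4 lower of 17, and 6 higher and 4 lower without Combo replicate 3. ITGA11, a collagen-binding integrin of mesenchymal cells, rose from 56.6, 77.0 and 18 to 2398, 3470 and 3488 (6.13 ± 0.36, adjusted p = 1.58e-10). VCAM1, a vascular adhesion molecule, was listed at 0, 11.1 and 3.26 against 2664, 1942 and 11028, with replicate 3 the highest. ITGA6, a laminin-binding integrin, fell from 27972, 27774 and 25580 to 4147, 5073 and 2530 (-2.85 ± 0.23, adjusted p = 1.46e-08), and ITGB3, a vitronectin-binding integrin, fell by 1.63 on the log2 scale. The list therefore split by member and did not move one way. Among 16 genes of epithelial-mesenchymal transition and invasion, 5 were higher and 2 lower, against 19.1% and 8.09% of all genes. CDH11, a mesenchymal cadherin, stood at 7.41, 37.4 and 101 in parental and at 1260, 2202 and 1965 in Combo libraries (5.78 ± 0.54, adjusted p = 9.87e-08). SNAI1, a repressor related to SNAI2, fell from 845, 855 and 895 to 284, 261 and 315 (-1.59 ± 0.18, adjusted p = 1.15e-06). The transition factor ZEB1 (-0.58, adjusted p = 0.152) and the neural cadherin CDH2 (-0.32, adjusted p = 0.302) were not called.

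Smooth muscle contractile genes were higher in CRT34 Combo, 11 of 13 with none lower and a median of 3.01 log2. MYOCD, myocardin, the cofactor that turns on the smooth muscle program with SRF, was listed at 6.24, 0 and 1.84 in parental and at 10056, 10493 and 13067 in Combo libraries (11.99 ± 0.63, adjusted p = 3.66e-11). ACTA2, smooth muscle actin, rose from 170, 184 and 205 to 14256, 9755 and 11277 (5.96 ± 0.41, adjusted p = 1.52e-09). TAGLN, the actin-binding protein transgelin, rose from 304, 137 and 160 to 50559, 39603 and 15102 (7.36 ± 0.62, adjusted p = 2.66e-08). SRF itself, the factor that binds the CArG box, was not called (0.15, adjusted p = 0.40), and DES, the muscle intermediate filament gene, also was not (0.54, adjusted p = 0.53). LMOD1, a smooth muscle leiomodin, was listed at 0, 0 and 1.15 against 1502, 449 and 623.

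Genes of the TGF-beta pathway gave 6 higher and 1 lower of 21, against 19.1% and 8.09% of all genes. TGFB2, a ligand, rose from 289, 181 and 138 to 15422, 24015 and 8261 (6.22 ± 0.40, adjusted p = 6.15e-10), and TGFBR2, a receptor, from 3081, 3134 and 3410 to 8330, 8985 and 13706 (1.65 ± 0.23). TGFB1, the related ligand, did not reach a 2-fold change (0.65, adjusted p = 0.0313). INHBA, a subunit of activin, was lower by -1.57 ± 0.48, and without Combo replicate 1 this call was lost (-1.19, adjusted p = 0.0724). Proteases of the matrix and their inhibitors gave 7 higher and 1 lower of 17 with a median of 0.82 log2, and 5 and 2 with a median of -0.06 without replicate 3. ADAMTS5, an aggrecan-cleaving protease, rose from 9.26, 2.62 and 2.82 to 1042, 1300 and 799, and TIMP2, an inhibitor of these proteases, rose by 1.82 ± 0.17. SERPINE2, a secreted inhibitor of serine proteases, fell from 136846, 150719 and 163372 to 10466, 30170 and 87084. Its 3 Combo libraries spanned a wide range, and the difference of -2.31 became -1.55 without Combo replicate 1 and -3.08 without replicate 3.

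**Figure D3:**
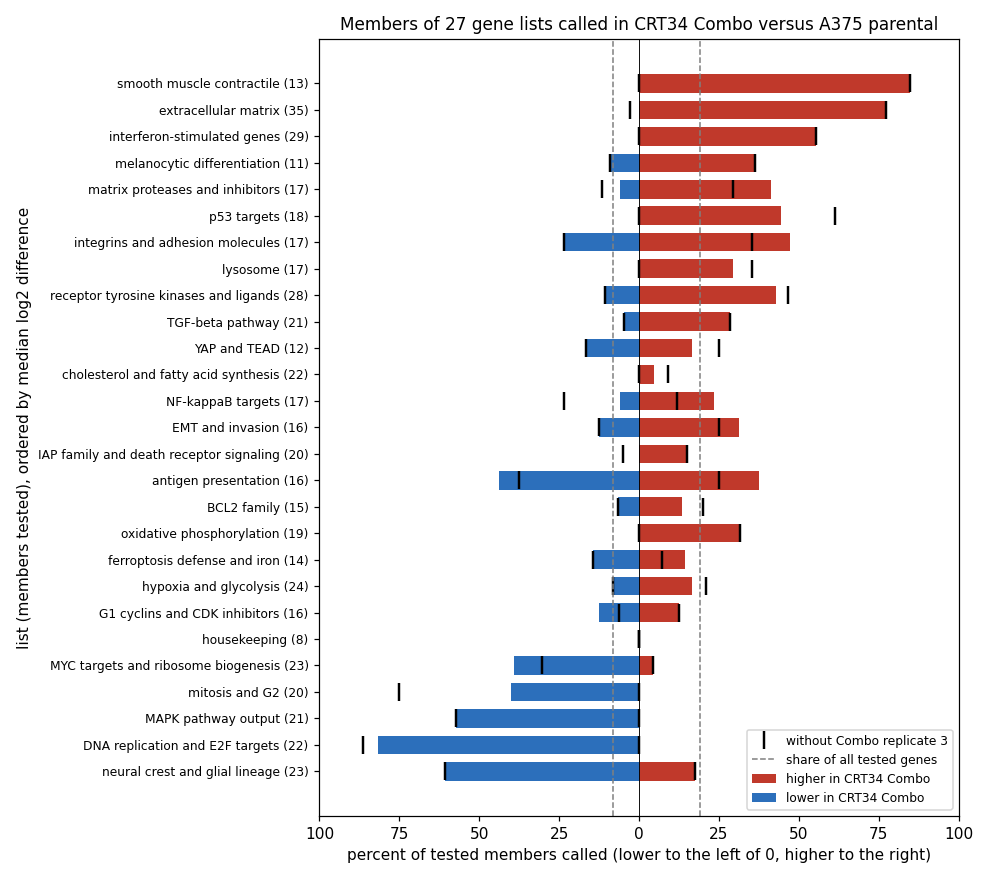
Percent of the tested members of 27 gene lists called higher (to the right) or lower (to the left) in CRT34 Combo than in A375 parental cells, ordered by the median log2 difference. Black ticks give the same without Combo replicate 3 and dashed lines the share of all 19290 tested genes (19.1% higher, 8.09% lower). Smooth muscle contractile and extracellular matrix genes lie at the top, DNA replication, MAPK output and neural crest genes at the bottom, and the ticks depart from the bars most for mitosis, NF-kappaB and p53 target genes.

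Interferon-stimulated genes were higher in CRT34 Combo without a call in the other direction. Of 29 tested genes, 16 were higher, also without Combo replicate 3, and the median was 1.23 log2. BST2, tetherin, which holds budding virus at the membrane, stood at 80.5, 113 and 116 in parental and at 5469, 4534 and 2936 in Combo libraries (5.34 ± 0.26, adjusted p = 1.53e-11). IFITM1, which blocks virus entry, had 29.1, 56.1 and 40.9 against 2629, 2080 and 2303 (5.81 ± 0.40, adjusted p = 1.85e-09). OAS2, which makes the second messenger of the RNA-degrading antiviral pathway, had 261, 434 and 400 against 2662, 2129 and 2486 (2.76 ± 0.19, adjusted p = 1.37e-09). XAF1, an interferon-induced partner of XIAP, was listed at 6.16, 1.64 and 6.98 against 569, 335 and 745. All 3 Combo libraries were high for these 4 genes. Of the list members outside the naming rule, chosen here after their values were seen, IFIT1, which binds viral RNA, had 326, 440 and 324 against 3661, 1931 and 1456 (2.59, adjusted p = 4.1e-06), and IFI27 was listed at 1.26, 0 and 0.112 against 59.7, 38.1 and 35.3. MX1, a classical member of the same list, was not called (-0.03, adjusted p = 0.92).

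The promoters of this list were read because its 16 called genes were all higher. Promoter sequence came from RefSeq (GRCh38.p14) as the 250 bases before the start of the gene, and it was searched on both strands for the core of the interferon-stimulated response element, a pair of GAAA repeats with any 2 bases between them, overlapping matches included. Of the 29 tested genes, 21 had a promoter in the table and 12 of these held the motif, as did 9 of the 13 matched genes called higher, against 1061 of 35116 promoters of the same length (3.02%). The list was chosen as interferon-stimulated, so an excess over all promoters was built into the choice and is not a result of these data. IFI44, HERC5 and OAS3 held the motif and were not called. The 4 promoters below, in 5′ to 3′ direction, are those of the genes called higher whose values are given above and that hold it, with each match in capitals on either strand.

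BST2 (chr19:17405631-17405880, minus strand): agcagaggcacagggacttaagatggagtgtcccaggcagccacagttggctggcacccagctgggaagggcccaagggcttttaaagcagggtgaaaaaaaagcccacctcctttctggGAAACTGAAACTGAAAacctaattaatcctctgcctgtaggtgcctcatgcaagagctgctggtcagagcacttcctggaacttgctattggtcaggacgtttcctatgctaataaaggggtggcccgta
IFITM1 (chr11:313790-314039, plus strand): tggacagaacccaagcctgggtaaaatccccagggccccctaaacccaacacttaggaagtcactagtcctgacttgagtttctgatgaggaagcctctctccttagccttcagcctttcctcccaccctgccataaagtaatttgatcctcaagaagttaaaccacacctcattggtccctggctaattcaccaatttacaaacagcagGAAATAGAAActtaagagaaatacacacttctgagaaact
IFIT1 (chr10:89392373-89392622, plus strand): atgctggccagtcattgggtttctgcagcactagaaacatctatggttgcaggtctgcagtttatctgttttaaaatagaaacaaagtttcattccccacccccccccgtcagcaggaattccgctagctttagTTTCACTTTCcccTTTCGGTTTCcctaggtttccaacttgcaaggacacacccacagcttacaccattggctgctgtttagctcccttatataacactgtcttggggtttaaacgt
IFI27 (chr14:94110486-94110735, plus strand): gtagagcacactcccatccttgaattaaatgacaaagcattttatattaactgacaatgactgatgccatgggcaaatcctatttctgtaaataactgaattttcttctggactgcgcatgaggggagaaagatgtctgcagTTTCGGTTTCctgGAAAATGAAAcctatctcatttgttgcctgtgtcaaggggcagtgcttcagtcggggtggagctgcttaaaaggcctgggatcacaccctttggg

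BST2 holds 2 overlapping matches on the plus sense of the promoter, IFIT1 holds 2 that read on the opposite strand, and IFI27 holds 1 in each sense. IFITM1 holds a single match, 31 bases before the gene start at its nearest base. The same window was searched in the contractile genes for the CArG box, to which SRF binds. Of 13 tested genes, 9 had a promoter in the table and 3 held the box (ACTG2, MYLK and SRF), 2 of them among the 8 matched genes called higher, against 407 of 35116 promoters (1.16%). The choice of the list limits this comparison in the same way. ACTG2, the enteric smooth muscle actin, was listed at 5.97, 1.67 and 3.02 in parental and at 139, 82.2 and 132 in Combo libraries (4.78, adjusted p = 2.1e-05). MYLK, the kinase that sets off smooth muscle contraction, stood at 1213, 830 and 781 against 11925, 8203 and 6697 (3.23, adjusted p = 9.1e-07). The 2 promoters follow with the boxes in capitals, and both genes were picked for the box and not by the naming rule.

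ACTG2 (chr2:73892758-73893007, plus strand): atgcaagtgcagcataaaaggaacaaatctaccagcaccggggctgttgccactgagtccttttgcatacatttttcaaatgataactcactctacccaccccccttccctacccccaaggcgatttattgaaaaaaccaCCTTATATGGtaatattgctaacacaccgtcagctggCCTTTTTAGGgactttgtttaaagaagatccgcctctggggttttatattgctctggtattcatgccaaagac
MYLK (chr3:123620549-123620798, minus strand): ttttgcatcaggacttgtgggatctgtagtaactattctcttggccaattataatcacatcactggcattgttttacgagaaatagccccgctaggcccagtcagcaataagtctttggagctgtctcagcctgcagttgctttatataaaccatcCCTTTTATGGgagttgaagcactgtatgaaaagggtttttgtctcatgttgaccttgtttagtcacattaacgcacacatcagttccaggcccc

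Antigen presentation split by class. Of 16 genes, 6 were higher and 7 lower, and 4 and 6 without Combo replicate 3. The class II genes fell. HLA-DRA (chr6:32439878-32445046, plus strand), the alpha chain of a class II molecule, stood at 19192, 18513 and 18196 in parental and at 89.0, 48.1 and 60.5 in Combo libraries (-8.17 ± 0.29, adjusted p = 2.43e-13). CD74, the chaperone of class II, had 43281, 43381 and 50923 against 1312, 801 and 1790 (-5.21 ± 0.27, adjusted p = 3.66e-11), and HLA-DPA1 had 10649, 10339 and 10005 against 2043, 2109 and 1928 (-2.35 ± 0.11, adjusted p = 6.69e-12). CIITA, the master activator of these genes, named here after its values were seen, stood at 2597, 2138 and 1898 against 35.6, 73.1 and 106. The class I side went up, with HLA-B at 2757, 1896 and 2086 in parental and at 10961, 9520 and 16749 in Combo libraries (2.44 ± 0.22, adjusted p = 6.83e-08) and its activator NLRC5 higher by 1.44 ± 0.19. B2M, the common light chain of class I, was higher by 1.14 and TAP1, a peptide transporter, by 1.08, and without Combo replicate 3 they were at 0.99 and 0.97, under the 2-fold limit. HLA genes have near-identical copies between which reads can be split, so the values of single HLA genes are uncertain.

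Targets of NF-kappaB depended on Combo replicate 3. Of 17 tested genes, 4 were higher and 1 lower than in parental cells, near the 19.1% and 8.09% of all genes. Without replicate 3 the numbers were 2 and 4. The median went from 0.27 to -0.71 log2. IL6, an inflammatory cytokine, stood at 9.17, 51.9 and 54.8 in parental and at 179, 239 and 3714 in Combo libraries (4.13 ± 0.98, adjusted p = 0.00202, and 2.74 without replicate 3). PTGS2, the inducible cyclooxygenase, had 115, 158 and 208 against 171, 528 and 16806, and its call (2.88, adjusted p = 0.0319) was lost without replicate 3 (0.95, adjusted p = 0.248) and without parental replicate 1, 2 or 3 (adjusted p = 0.0909, 0.0661 and 0.0503). CCL2, a chemokine for monocytes, had 189, 2588 and 3014 against 9449, 6579 and 41005 (3.58 ± 0.85, adjusted p = 0.00211), with 2.79 without replicate 3 and 2.29 without parental replicate 1. In each of these 3 genes the highest Combo library was replicate 3. IL1A, a cytokine of the interleukin-1 family, was lower, at 146, 416 and 499 against 20.1, 23.3 and 194 (-2.75 ± 0.72, adjusted p = 0.00437), and more so without replicate 3 (-3.79).

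Genes of DNA replication fell together. Of 22 tested E2F and replication genes, 18 were lower in CRT34 Combo than in parental cells and none was higher, with a median of -1.23 log2. Without Combo replicate 3, 19 were lower. Against the same line without drug, CRT34 DMSO, none of the 22 was called in either direction, with a median of -0.19 log2. TYMS, thymidylate synthase, stood at 15798, 13896 and 14160 in parental and at 5588, 4786 and 5265 in Combo libraries (-1.49 ± 0.22, adjusted p = 2.27e-05). PCNA, the sliding clamp of DNA polymerase, had 24846, 21792 and 23006 against 11590, 10333 and 8597 (-1.20 ± 0.18, adjusted p = 2.60e-05), and GINS2, a subunit of the replicative helicase, fell by 1.88 on the log2 scale. All 3 Combo libraries lay below all parental libraries for these genes. Genes of mitosis gave 8 lower of 20 and 15 lower without Combo replicate 3. KIF11, a spindle motor, had 21185, 18095 and 16654 in parental and 5814, 6448 and 11530 in Combo libraries (-1.29 ± 0.32, adjusted p = 0.00307), with replicate 3 the highest of its group. The mitosis count moved with most alternatives, with 3 lower after scaling to equal totals or quantile normalization, 3 and 2 without Combo replicates 1 and 2, and 3, 5 and 4 without parental replicates 1, 2 and 3. MKI67, the proliferation marker, stood at 40794, 28396 and 30603 against 12001, 16362 and 24510 and was not called (-0.96, adjusted p = 0.0609), but was without replicate 3 (-1.23, adjusted p = 0.0312).

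Targets of p53 gave 8 higher and none lower of 18, and 11 without Combo replicate 3. CDKN1A, the inhibitor of cyclin-dependent kinases also called p21, rose from 5270, 4922 and 5015 to 50233, 37169 and 14494 (2.57 ± 0.42, adjusted p = 8.04e-05). GDF15, a stress cytokine, rose from 149, 235 and 225 to 5918, 5185 and 1787 (4.25 ± 0.48, adjusted p = 9.94e-07), and TP53INP1, a p53-induced nuclear protein, by 3.65 ± 0.49. In these 3 genes Combo replicate 3 was the lowest of its group and above every parental library. MYC targets and genes of ribosome biogenesis gave 1 higher and 9 lower of 23, of which the lower count was 5 after either rescaling and 5 without Combo replicate 1. FBL, the rRNA methyltransferase fibrillarin, fell from 20951, 18383 and 18081 to 6489, 8172 and 11234 (-1.18 ± 0.22, adjusted p = 2.47e-04, and -0.99 without Combo replicate 1). ODC1, a polyamine enzyme and MYC target, was the higher gene (1.17 ± 0.26). Among cyclins and inhibitors of G1, 2 of 16 were higher and 2 lower, against 19.1% and 8.09% of all genes. CCND3 (-0.46), RB1 (0.09) and CDKN1B (0.08) were not called.

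Most survival genes were not called. Of 20 genes of the IAP family and death receptor signaling, 3 were higher and none was lower, where 19.1% of all genes were higher. FAS, a death receptor, stood at 1580, 1364 and 1379 in parental and at 5080, 4892 and 5933 in Combo libraries (1.88 ± 0.19, adjusted p = 3.05e-07), TRADD, a death domain adaptor, was higher by 1.39 ± 0.26, and TNF was listed at 0, 10.2 and 19.2 against 50.7, 39.1 and 462. The IAP genes themselves were not called. BIRC2, which encodes cIAP1, had 8698, 6938 and 7500 against 6408, 7517 and 11239 (0.09, adjusted p = 0.729), and XIAP stood at 0.12 (adjusted p = 0.741). BIRC3, which encodes cIAP2, had 241, 1104 and 1652 against 608, 871 and 6742 (1.01 ± 0.71, adjusted p = 0.253), with replicate 3 far above the other Combo libraries and a difference of -0.06 without it. Of 15 BCL2 family genes, 2 were higher and 1 lower, against 19.1% and 8.09% of all genes. BMF, a BH3-only death activator, rose from 79.0, 131 and 107 to 362, 700 and 1389 (2.76 ± 0.48, adjusted p = 1.42e-04), and BCL2, the founding survival member, fell from 1101, 932 and 881 to 233, 229 and 282 (-1.96 ± 0.32, adjusted p = 7.42e-05).

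In metabolism, oxidative phosphorylation genes split by genome. Of 19, 6 were higher, 5 of them encoded in mitochondrial DNA and the other PPARGC1A, the activator of mitochondrial biogenesis. MT-CO2, a cytochrome oxidase subunit, stood at 37999, 41686 and 50781 in parental and at 208722, 197286 and 124455 in Combo libraries (2.00 ± 0.18, adjusted p = 5.33e-08), and MT-CO1, MT-ND4 and MT-CYB rose by 1.40, 1.31 and 1.15. No nuclear-encoded subunit was called, and the median of the list was -0.10, which turned to 0.07 after quantile normalization. Of 17 lysosomal genes, 5 were higher and none lower, against 19.1% and 8.09% of all genes. Among the 5 was CTSK, the collagen-degrading cathepsin K, which rose from 60.1, 95.5 and 67.3 to 2586, 2769 and 3624 (5.33 ± 0.21, adjusted p = 6.84e-13). Hypoxia and glycolysis genes gave 4 higher and 2 lower of 24, near the shares of all genes (19.1% and 8.09%), with the lactate transporter SLC16A3 higher (2.33 ± 0.18) and the hexokinase HK2 lower (-1.17 ± 0.19). Synthesis of cholesterol and fatty acids gave 1 of 22, the sterol enzyme SC5D (1.11 ± 0.18), which fell under the 2-fold limit without Combo replicate 2 (0.98). Ferroptosis genes gave 2 higher and 2 lower of 14, against 19.1% and 8.09% of all genes. SLC3A2 and SLC7A11, the pair that imports cystine, were lower by -1.95 and -1.14. The call of SLC7A11 was lost without Combo replicate 1 (-0.81, adjusted p = 0.0905). None of 8 housekeeping genes was called, with a median of -0.43.

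Several of the largest single changes fell outside these lists. CD36, a scavenger receptor that takes up fatty acids, was listed at 0.918, 1.77 and 5.22 in parental and at 7162, 9983 and 8239 in Combo libraries (11.35 ± 0.59, adjusted p = 3.16e-11). OLR1, a receptor for oxidized lipoprotein, had 8.94, 7.25 and 4.61 against 5539, 5294 and 19342 (10.07 ± 0.65, and 9.46 without replicate 3). SSTR1, a somatostatin receptor, had 2.12, 5.11 and 3.67 against 7379, 7721 and 1865, and 2 genes were listed at 0 in every parental library, the lipid flippase ATP8B1 (2660, 4437 and 1044 in Combo) and the microfibril protein MFAP4 (1611, 1246 and 1479). In the falling direction, MUC5B, a secreted mucin, was at 1559, 1252 and 1179 in parental and listed at 0 in Combo libraries. CD96, a receptor known from lymphocytes, fell from 10800, 12751 and 11722 to 35.5, 31.2 and 22.6 (-8.60 ± 0.56, adjusted p = 7.85e-10), and the matrix link protein HAPLN1 (-7.61), the opioid receptor OPRD1 (-7.38), MGAM2 (-9.84) and the axonemal dynein DNAH9 (-7.65) were lower as well. No overlap between the Combo and parental libraries was a condition for naming these genes.

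Markers of cell types that a culture from a tumor could hold were counted beside these results. Of 10 leukocyte markers, 5 were tested, 3 were higher and 1 was lower. Their sum was 1580 to 1700 in parental and 7055, 8511 and 7476 in Combo libraries, which was nearly all CD68, a lysosomal glycoprotein, at 6972, 8454 and 7442. The pan-leukocyte marker PTPRC was at 44.5, 11 and 4.55 in Combo libraries, CD3E and NKG7 were listed at 0 throughout, and LYZ was lower. Of 8 endothelial markers, 7 were tested, 4 were higher and 2 lower, and their sum of 252 to 317 in parental and 3967, 3005 and 5688 in Combo libraries was mostly the angiopoietin receptor TEK, at 2905, 2342 and 4722. The list members CDH5 and PECAM1 were at most 67.4 and 216 in Combo libraries, CLDN5 was listed at 0 and KDR fell. Of 8 keratinocyte markers, 5 were tested, 1 was higher and 3 were lower, with KRT14 at 300, 364 and 335 in parental and listed at 0 in Combo libraries, and sums of 1664 to 1719 against 1167, 1263 and 1347. The higher keratinocyte gene, TP63, reached 20.9 in Combo replicate 3 alone and lost its call without that library (0.93, adjusted p = 0.253). The part of these markers in the other results was not tested.

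Against the same line without drug, CRT34 Combo differed in 547 higher genes (2.84%) and 436 lower genes (2.26%), and in 926 (4.80%) and 623 (3.23%) without Combo replicate 3, of which 503 and 399 were shared. These calls rested on the spread estimated from all 7 groups. With the 6 libraries of the 2 groups alone, 7 genes were higher and 29 lower, and of the 12 genes named here by size only IL33 kept its call. Without Combo replicates 1 and 2 the higher count was 229 and 234. The genes that led the rise on drug were IL18, an inflammasome cytokine (2292, 1393 and 330 in Combo against 17.3, 112 and 95.1 in DMSO, 4.13 log2), and CPA4, a carboxypeptidase (142204, 100805 and 19300 against 6173, 2038 and 4397, 4.10 log2). CDH10, NTN4 and SEMA3E, which encode a cadherin, a netrin and a semaphorin, followed at 3.66, 2.76 and 2.63. In all 5 genes Combo replicate 3 was the lowest of its group. It lay above every DMSO library, which was a condition for naming them.

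Among the genes most reduced on drug were cytokines and a protease. IL33, an alarmin cytokine, was listed at 0 in parental libraries, at 224, 141 and 350 in Combo and at 18329, 18064 and 13557 in DMSO libraries (-6.20 log2, adjusted p = 2.7e-05, and 0.00883 with the 2 groups alone). IL11, a fibrogenic cytokine, was at 62.1, 344 and 1063 in Combo and at 8160, 23319 and 13504 in DMSO libraries, where parental cells had 682, 458 and 732. CSF3, a granulocyte growth factor, was at 0, 1.39 and 245 against 902, 959 and 2300, and MMP10, a stromelysin, at 6.91, 96.2 and 228 against 2086, 2234 and 2546. Combo replicate 3 was the highest of its group in these 4 genes. By list, 8 NF-kappaB targets of 17 were lower in Combo than in DMSO, and 13 without replicate 3, with medians of -1.56 and -2.84. Matrix proteases gave 7 lower of 17, and matrix genes 10 lower and 1 higher of 35. With the libraries of these groups alone, 1 protease and none of the NF-kappaB or matrix genes kept a call. Mitosis genes, MYC targets with ribosome biogenesis, and p53 targets gave no call against DMSO (medians -0.04, -0.14 and 0.39 log2). Without Combo replicate 3, 3 p53 targets were higher than in DMSO. MITF was higher on drug (1.72, adjusted p = 0.0022) and WNT5A lower (-1.56, adjusted p = 0.033). With the libraries of these groups alone, no member of the melanocytic, neural crest or EMT lists was called. WNT5A, a Wnt ligand of invasive melanoma, stood at 3140, 3084 and 2946 in parental, 5731, 7285 and 26226 in Combo and 21938, 38345 and 33483 in DMSO libraries. Against parental it was higher by 1.75, and by 1.08 without replicate 3.

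**Figure D4:**
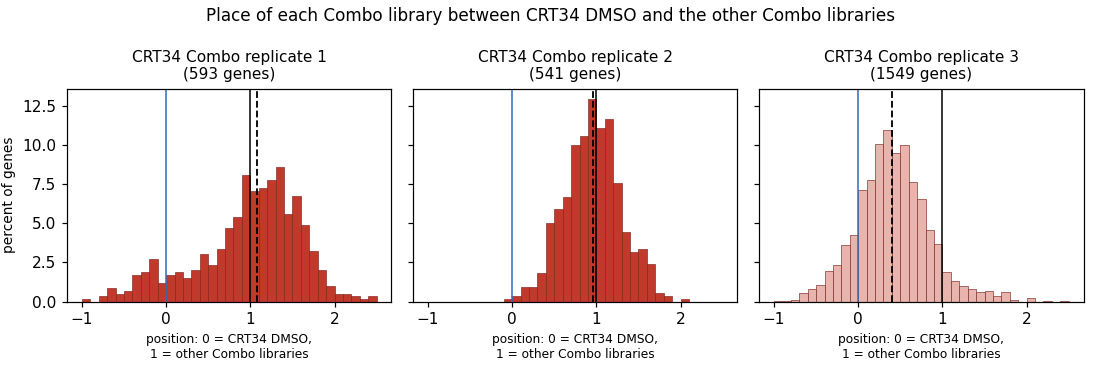
For each Combo library, the place of its log2 value between the CRT34 DMSO mean (0) and the mean of the other Combo libraries (1), over the genes that those other 2 libraries called against DMSO, as percent of genes in bins of 0.1. Dashed lines are medians, 1.08, 0.959 and 0.396 for replicates 1, 2 and 3. Replicates 1 and 2 center on the other Combo libraries and replicate 3 between these and DMSO. The gene sets differ between panels, and the other libraries of replicates 1 and 2 include replicate 3. Selecting the genes on the other 2 libraries tends to place the library left out below 1.

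Combo replicate 3 lay between the other Combo libraries and CRT34 DMSO for many of the genes that change with drug. Its place was taken over the 1549 genes called in Combo against DMSO from replicates 1 and 2 alone, with 0 at the DMSO mean and 1 at the mean of replicates 1 and 2. The median place of replicate 3 was 0.396, and 931 of the 1549 genes (60.1%) were nearer to DMSO. Placed the same way between DMSO and the other 2 Combo libraries, replicate 1 had a median of 1.08 (593 genes, 20.1% nearer to DMSO) and replicate 2 of 0.959 (541 genes, 9.24%). Those gene sets were called with replicate 3 among the other 2 libraries, and its values enter the point at 1. The medians therefore rest on different genes and references and are not a like-for-like comparison. Each library was also left out of the selection of its genes, while the other 2 set the point at 1. A library left out in this way tends to fall below 1 from the selection alone, on the parental axis as well. How much of the place of replicate 3 comes from this was not tested. On the axis from parental to Combo, replicate 3 had a median of 0.802 over 5389 genes, and 20.9% of these were nearer to parental cells. Replicates 1 and 2 had medians of 1.01 and 0.978 there, with 11.3% and 5.69% of their genes nearer to parental cells. The 8 MAPK output genes lower in Combo than in DMSO did not move one way in it. Replicate 3 was the highest Combo library for 4 of them (DUSP6, ETV4, PHLDA1 and IER3), the lowest for 3 (SPRY2, EGR1 and FOS) and between the others for SPRY4, and in all 8 it lay below the lowest DMSO library, by little for ETV4 (1077 against 1196). Some shifts of replicate 3 also appeared in replicate 3 of CRT35 Combo. Summed mitosis genes were 136397.5, 146751.8 and 242101.1 in CRT34 Combo and 132296.5, 262120.9 and 376218.9 in CRT35 Combo replicates 1, 2 and 3. Summed p53 targets were 118651.5, 106436.7 and 72853.5 against 108560.0, 92185.5 and 69650.0. NF-kappaB targets differed between the lines, at 22717.7, 24271.5 and 210779.4 against 230102.2, 154765.8 and 130016.1.

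**Figure D5:**
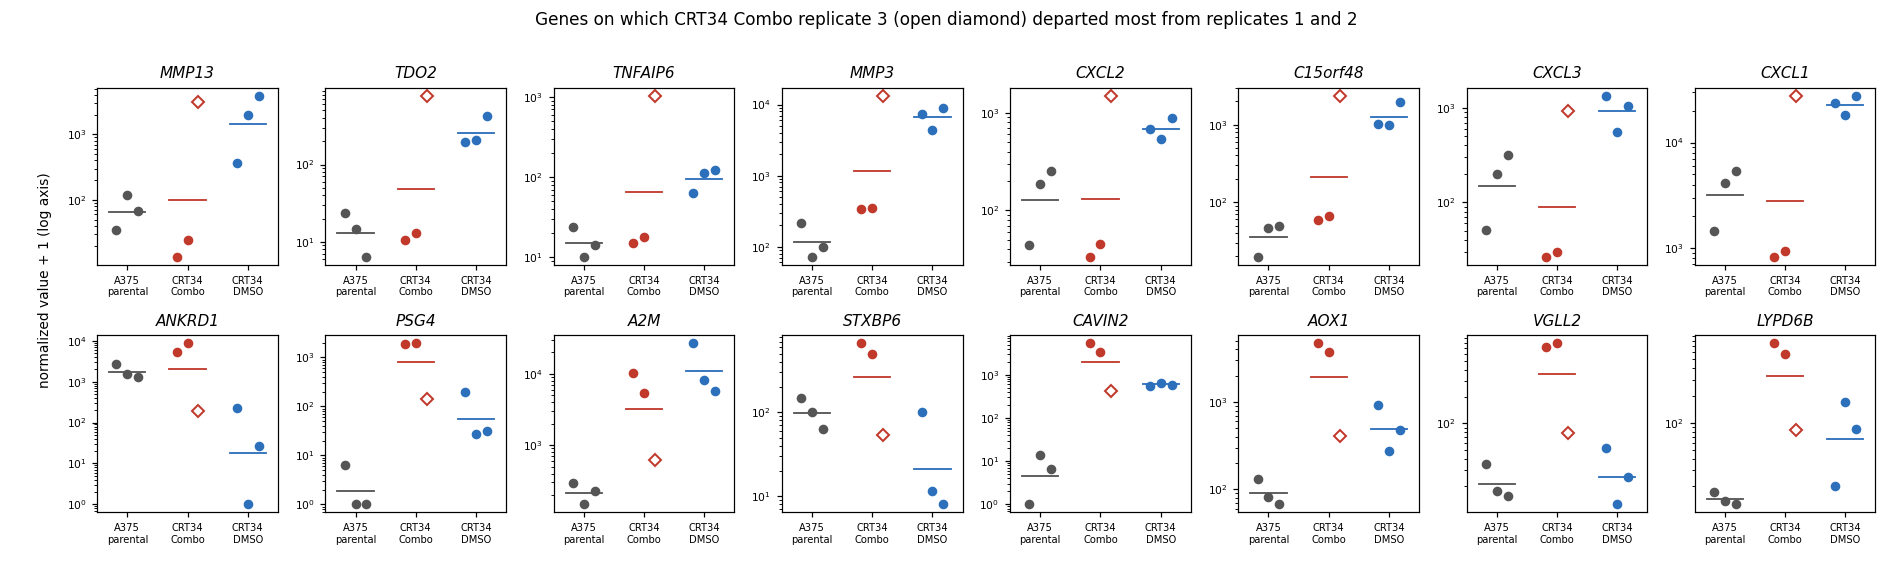
Normalized value + 1 (log axis) in A375 parental, CRT34 Combo and CRT34 DMSO libraries of the 8 genes highest and the 8 lowest in Combo replicate 3 (open diamond) relative to replicates 1 and 2. Lines are geometric means of value + 1. For CXCL1, CXCL2, CXCL3 and MMP3, replicate 3 lies with the DMSO libraries, and for ANKRD1, VGLL2 and AOX1 it lies far below the other Combo libraries.

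The 8 genes that stood highest in Combo replicate 3 included matrix proteases and chemokines. MMP13, a collagenase, was at 12.4, 23.1 and 3107 in Combo replicates 1, 2 and 3 and at 369, 2007 and 3895 in DMSO. CXCL1, a neutrophil chemokine (chr4:73869393-73871308, plus strand), was at 821, 938 and 27795 in Combo, at 23791, 18409 and 27404 in DMSO and at 1448, 4140 and 5322 in parental libraries. CXCL2 and CXCL3, its neighbors in the same cluster, were at 1498 and 930 in replicate 3 and at most 44.1 and 28.8 in the other Combo libraries. MMP3, a stromelysin (337, 349 and 13334), TNFAIP6, a hyaluronan-binding protein (14.1, 17.2 and 1037), TDO2, a tryptophan-degrading enzyme (9.61, 12.2 and 775), and C15orf48 (57.9, 64.8 and 2363) completed the set. Replicate 3 exceeded every DMSO library for 6 of the 8 genes, the exceptions being MMP13 and CXCL3. CXCL1, CXCL2 and CXCL3 are close paralogs between which reads can be split. Called differences from parental cells for MMP3 (3.34) and C15orf48 (2.55) were lost without replicate 3. CXCL8, picked after its values were seen, had 1203, 3476 and 84574 in Combo and 266134, 142496 and 161205 in DMSO libraries.

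The 8 genes that stood lowest in replicate 3 began with ANKRD1, a nuclear ankyrin repeat protein and known YAP target (chr10:90912096-90921087, minus strand). It was at 5268, 8820 and 191 in Combo, at 226, 0 and 26.0 in DMSO and at 2643, 1547 and 1282 in parental libraries. PSG4, a pregnancy glycoprotein, was at 1904, 1964 and 141, A2M, a protease inhibitor, at 10307, 5341 and 614, and CAVIN2, a caveolar coat protein, at 5442, 3350 and 410. AOX1, an aldehyde oxidase, was at 4732, 3722 and 403, VGLL2, a cofactor of TEAD, at 722, 793 and 77.4, LYPD6B at 756, 570 and 81.8, and STXBP6 at 674, 501 and 52.4. Replicate 3 stayed above every parental library for PSG4, A2M, CAVIN2, AOX1, VGLL2 and LYPD6B, and below every parental library for ANKRD1 and STXBP6. A2M was the exception among them with regard to DMSO, where it was high (26913, 8048 and 5772).

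Replicate 3 was the lowest Combo library for 7 of 12 targets and partners of YAP and TEAD and the highest for 4. The same shares over all genes were not counted. No result about the list is therefore read from these counts. Of these 12 members, 2 were higher and 2 lower against parental, where 19.1% and 8.09% of all genes were. Against DMSO, 4 were higher and none lower, where 2.84% and 2.26% of all genes were. CCN2, a secreted matricellular protein, was at 15056, 24830 and 2850 in Combo, at 4322, 3638 and 3314 in parental and at 3944, 1864 and 2162 in DMSO libraries. Its call against parental (1.45, adjusted p = 0.027) was lost without Combo replicate 1 (1.17), Combo replicate 2 (0.81), parental replicate 2 (1.43) or parental replicate 3 (1.37), and was 2.37 without Combo replicate 3. CCN1, its relative, was at 15641, 21764 and 7997 in Combo against 6084, 5500 and 4716 in parental libraries (1.37 ± 0.30, adjusted p = 0.00101), and the coactivator WWTR1, or TAZ, fell from 46562, 48914 and 51008 to 8395, 9463 and 10762. The TEAD motif GGAATG was searched on both strands in the same 250 bases. Of 12 tested genes, 9 had a promoter in the table and 4 held the motif (CCN2, ANKRD1, NUAK2 and YAP1), against 4175 of 35116 promoters (11.9%). The list was chosen as YAP and TEAD genes, so no result of these data is read from that comparison. The promoters of CCN2 and ANKRD1, the 2 of these 4 genes in which replicate 3 was the lowest Combo library, are shown with the motif in capitals.

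CCN2 (chr6:131951373-131951622, minus strand): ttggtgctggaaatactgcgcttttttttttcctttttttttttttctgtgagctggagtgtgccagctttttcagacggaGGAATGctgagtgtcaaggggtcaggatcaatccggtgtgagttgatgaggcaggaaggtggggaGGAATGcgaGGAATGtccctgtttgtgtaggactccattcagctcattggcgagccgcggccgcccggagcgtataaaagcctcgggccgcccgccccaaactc
ANKRD1 (chr10:90921088-90921337, minus strand): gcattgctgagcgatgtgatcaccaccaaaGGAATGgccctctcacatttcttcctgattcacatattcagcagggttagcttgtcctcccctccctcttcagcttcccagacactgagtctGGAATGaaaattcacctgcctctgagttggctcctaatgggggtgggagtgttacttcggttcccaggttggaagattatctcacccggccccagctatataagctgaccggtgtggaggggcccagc

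CRT35 Combo was the line most like CRT34 Combo in design, and 721 genes were higher (3.74%) and 612 lower (3.17%) in CRT34 Combo than in it. Without Combo replicate 3 these were 826 (4.28%) and 640 (3.32%), with 624 and 434 shared. Same-numbered libraries of these 2 groups deviated together, and with the number as a replicate block 546 genes were higher and 407 lower. The largest difference was in type IV collagen. COL4A1 was at 89798, 119188 and 123524 in CRT34 Combo and at 20.4, 12.4 and 21.5 in CRT35 Combo (12.53 log2, adjusted p = 3.3e-18), and COL4A2, which pairs with it, at 46885, 45106 and 33787 against 167, 283 and 265. Parental cells, at 13289, 14701 and 17579 for COL4A1, stood between the lines. BMP5, a bone morphogenetic protein, was at 5462, 4656 and 4079 in CRT34 and at 22.7, 9.55 and 42.7 in CRT35 Combo, and the homeobox gene MEOX2 and the smooth muscle potassium channel subunit KCNMB1 were higher in CRT34 by 6.91 and 6.64. POSTN was higher in CRT34 (3.74, adjusted p = 1.8e-07), as were ACTA2 (2.02) and TAGLN (2.05), and contractile genes gave 5 higher and none lower of 13.

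In the other direction, CTAG2, a cancer-testis antigen, was at 8.76, 3.97 and 2.34 in CRT34 Combo and at 1751, 1791 and 1654 in CRT35 Combo (-8.31, adjusted p = 1.1e-09). MXRA8, a matrix remodeling receptor, was at 28.3, 26.9 and 22.4 against 1100, 971 and 1181, PIK3CG, a phosphoinositide kinase, at 42.9, 35.1 and 15.4 against 1590, 1378 and 1121, and ADGRF5, an adhesion receptor, at 162, 203 and 107 against 5122, 6133 and 4113. CSF2 and IL1B, which encode inflammatory cytokines, were lower by -5.45 and -4.34, and both calls were lost with the replicate block (adjusted p = 0.0697 and 0.0502). Targets of NF-kappaB gave 6 lower and none higher of 17, 13 lower without Combo replicate 3 and none with the block. Between the tolerant lines, DNA replication and mitosis genes gave no call in either direction, and without replicate 3 only 1 replication gene was lower, and SOX10 was listed at 0 in both.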

How the data were processed

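RNA of all 21 libraries (7 groups of 3) was sequenced by the authors on an Illumina NovaSeq. The study's methods name a stranded TruSeq mRNA kit and the labels a different TruSeq kit, so strand use is not settled. Per the submitters' processing notes, reads were handled with STAR 2.6.1a, RSEM and DESeq2 on GRCh38. The deposited values are a normalized signal per gene, made by the authors from RSEM counts and size factors and, as the values appear, a further factor per gene that no source used here describes, so that levels of different genes are not compared. They are not counts. Among low values (up to 10 times the value of 1 read), 21.7% to 63.7% per library lay within 0.05 of a whole number of reads, too few to recover reads, so no count model was used. Summed values were 59.2 to 68.3 M per library, and intervals from counting cannot be given.

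Values were transformed as log2(value + 1). A filter required 3 or more libraries with a value of 10 or higher, which 19290 of 58870 genes passed. limma 3.58.1 in R 4.3.3 fitted 1 mean per group to all 21 libraries with a mean-variance trend, and p-values were adjusted by Benjamini-Hochberg over all kept genes. Calls needed an adjusted p no higher than 0.05 together with a 2-fold difference. Symbols and coordinates came from GENCODE 44. The gene lists and compared groups were chosen with earlier results of these data known. Named genes were a panel of study genes, up to 4 per list and direction, and the 8 genes highest and lowest in Combo replicate 3. Also named were the 12 genes most changed in each direction against parental and the 6 against each other group. These genes named by size had to be called, with no overlap of the compared libraries and a mean of at least 500 in the higher group.

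Replicate numbers come from the labels. Deviations of same-numbered CRT34 Combo and CRT35 Combo libraries correlated at 0.218, 0.253 and 0.207, and differently numbered ones at -0.178 to -0.0544. Same-numbered parental or CRT34 DMSO libraries did not correlate with CRT34 Combo in this way. The differently numbered CRT34 DMSO 1 and CRT34 Combo 2 reached 0.217, so the size of a correlation alone does not show pairing. Alternatives were a pseudocount of 10, no filter, the compared groups only, equal totals, quantile normalization, a replicate block, no trend and leaving out each library.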

Additional observations from a re-analysis of the deposited data

Results flagged for a closer look

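The difference from A375 parental cells was itself tested between CRT34 Combo and CRT34 DMSO, and it differed for 547 genes in the higher and 436 in the lower direction. Of the study genes named throughout, FN1 (-1.11), WNT5A (-1.56), MITF (1.72) and NGFR (1.54, Combo minus DMSO, log2) were among them. These calls rested on the spread estimated from all 7 groups. With the compared groups alone, no member of the melanocytic, neural crest, EMT or matrix lists was called against DMSO. FN1 lost this call without Combo replicate 3 (adjusted p = 0.056).

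Between the tolerant lines on inhibitors, the difference from parental cells differed for 721 genes in the higher and 612 in the lower direction in CRT34 Combo. PDGFRB (-1.64), MITF (1.07), POU3F2 (1.44) and COL4A1 (12.5, CRT34 Combo minus CRT35 Combo, log2) were among them. Both tests are limma contrasts, in which the parental term drops out.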

How the results depend on the processing

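Of 165 named genes called against A375 parental, 136 kept the call under every alternative, 29 lost it under at least 1 and 0 reversed. Quantile normalization gave 2457 lower genes against parental. Against CRT34 DMSO, the compared groups alone gave 7 higher and 29 lower genes (3080 at an unadjusted p under 0.05 by limma), and leaving out 1 library gave 229 to 926 higher genes. Against CRT35 Combo, the compared groups alone gave 468 higher and 332 lower. With the replicate block, 0 genes were higher and 0 lower against DMSO (2440 at an unadjusted p under 0.05 by limma), where same-numbered libraries did not deviate together. Against CRT35 Combo, where they did, 407 were lower. Without Combo replicate 3, 3 uncalled genes changed sign, CDKN1B to -0.0913 (leave-one-out range -0.0913 to 0.295), BIRC2 to -0.146 (-0.146 to 0.260) and BIRC3 to -0.0635 (-0.0635 to 1.67). The causes were not tested. Depth behind single values is unknown.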
